A study of Mus musculus with 12 samples.

Results

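A set of 10 regulators of Notch signalling and secretory cell fate were followed in mouse jejunum after inducible loss of Fgfr1op, a centrosome gene now named Cep43. The genes were Hes1, Notch1, Dll1, Dll4, Atoh1, Gfi1, Spdef, Neurog3, Neurod1 and Insm1. They were taken by name, with earlier results of these data known. Each of the 10 had exactly 1 probe set carrying its symbol alone, among 19938 genes measured in this way. The jejunum is the middle stretch of the small intestine, and the whole tissue was used, so muscle, connective tissue, nerves and immune cells contributed beside the epithelium. KO mice carried the inducible Fgfr1op knockout and WT mice were wild type. The treatment described for the study was tamoxifen at 75 mg per kg of body weight, injected into the abdomen on successive days, and tissue was taken at days 6, 9 and 12. Each genotype had 2 mice per day, 6 in all, and each mouse gave 1 array. The labels do not say what drives the recombinase, which part of the gene is deleted or how old the mice were. Nor do they say whether WT mice received tamoxifen, came from the same litters or had the recombinase, so an effect of drug or recombinase and an effect of losing Fgfr1op cannot be told apart here.

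In the intestinal crypt, dividing progenitors choose between an absorptive and a secretory fate through Notch. A cell that shows the ligands Dll1 or Dll4 activates the Notch1 or Notch2 receptor on its neighbour, the cleaved receptor joins the DNA-binding protein Rbpj in the nucleus, and the repressor Hes1 is switched on and holds Atoh1 down. Cells that escape this signal keep Atoh1, the master factor of the secretory lineage, and go on through Gfi1 and Spdef to goblet and Paneth cells, or through Neurog3, Neurod1 and Insm1 to hormone-making enteroendocrine cells.

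Hes1 protein is known to bind class C sites, with the letters CACGCG, and N boxes, with the letters CACNAG, and in the mouse it represses Atoh1, Neurog3 and Dll1. The 250 bases before the start were read from RefSeq (build GRCm38.p6) on both strands, and 8 of the 10 genes had such a window. The only window of Spdef belongs to a start inside the gene, and Dll1 and Gfi1 each had a second such window, neither of which held a class C site. A class C site lay before the first start of Atoh1, Neurog3, Neurod1, Dll1 and Dll4, and none lay in the windows of Notch1, Spdef and Gfi1. The letters occur in 7.6% of 32851 promoter windows of this length, and in 16.0% of those with at least 55% G and C. Atoh1 had 3 sites, at 131, 95 and 41 bases before its start, and only 74 of all windows, or 0.23%, held that many. The site lay 68 bases before the start of Dll1, 112 before Neurod1, 121 before Neurog3 and 195 before Dll4. The windows with a site in Atoh1, Neurog3, Neurod1 and Dll1 held no N box, which 36.7% of windows have. Those of Dll4 and Notch1 held 1 N box each. The RBPJ letters GTGGGAA, found in 5.4% of windows, were in none of the 8. A match is a run of letters and was not tested as a binding site. The windows of Dll1, Neurod1 and Atoh1 are shown, genes with a class C site whose KO minus WT difference was called at 1 day or more, 5′ to 3′ on the gene's strand, with the class C sites in capitals. They lie at chr17:15376933-15377182 on the minus strand (Dll1), chr2:79456637-79456886 on the minus strand (Neurod1) and chr6:64728875-64729124 on the plus strand (Atoh1).
Dll1: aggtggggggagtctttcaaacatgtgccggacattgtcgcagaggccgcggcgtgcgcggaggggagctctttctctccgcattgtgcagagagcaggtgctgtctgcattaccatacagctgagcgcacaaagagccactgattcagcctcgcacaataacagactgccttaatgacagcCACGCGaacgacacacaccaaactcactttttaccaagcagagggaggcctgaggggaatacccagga
Neurod1: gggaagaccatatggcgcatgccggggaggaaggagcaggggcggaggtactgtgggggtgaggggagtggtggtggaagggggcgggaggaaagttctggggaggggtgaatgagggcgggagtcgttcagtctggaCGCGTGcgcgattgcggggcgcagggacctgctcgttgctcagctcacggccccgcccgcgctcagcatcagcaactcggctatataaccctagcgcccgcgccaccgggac
Atoh1: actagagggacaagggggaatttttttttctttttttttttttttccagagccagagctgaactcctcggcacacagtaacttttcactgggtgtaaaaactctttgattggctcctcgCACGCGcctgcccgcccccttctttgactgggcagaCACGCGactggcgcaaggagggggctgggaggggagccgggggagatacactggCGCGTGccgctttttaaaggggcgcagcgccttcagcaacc

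Values are log2 signals as the authors deposited them, and a difference of 1 is a 2-fold change. Levels of different genes cannot be compared, because each probe set has its own brightness. Whether the 2 mice of each genotype overlapped or lay apart is given as a description only. The share of all genes that lay apart was not counted. Differences are KO minus WT with their standard error (SE), from a limma fit across all genes and all 12 arrays, and a gene was called where its Benjamini-Hochberg adjusted p over 19938 genes was under 0.05. Cep43, the targeted gene, had signals of 6.56 to 6.97 in the 6 KO arrays and 6.83 to 7.05 in the 6 WT arrays, and was lower in KO on average over the days (-0.26, SE 0.06, limma adjusted p = 0.00713). By day it was called at day 9 (-0.39, SE 0.11, adjusted p = 0.0184) and not at day 6 (-0.31, adjusted p = 0.267) or day 12 (-0.09, adjusted p = 0.638), where 1 KO array, at 6.97, lay above 1 WT array, at 6.83. The deleted part is not given, so this probe set may lie outside it. The 10 genes that mark jejunal epithelium had mean signals of 10.66 to 11.83 in the 6 KO arrays and 11.89 to 12.10 in the 6 WT arrays, so the labelled tissue was present in each array. At day 12 the means were 10.66 and 10.91 in KO and 12.10 and 12.05 in WT. Of the 10 genes, 6 were then lower in KO and 1 higher, against 13.7% of all genes in each direction, with a median difference of -0.64. The mean of 15 smooth muscle genes ran from 7.71 to 9.77 in KO and from 8.12 to 9.41 in WT. It was lower in both KO arrays than in either WT array at day 6, and higher in both at day 12.

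At day 12, 5 of the 10 regulators differed between KO and WT, against 27.3% of all genes, 13.7% in each direction. The ligand Dll1 and the receptor Notch1 were lower in KO, and the secretory factors Neurod1, Insm1 and Atoh1 were higher. At day 9, 2 of the 10 were called and both were lower in KO, Dll1 and Atoh1, against 29.7% of all genes called, 12.6% higher and 17.1% lower. Without KO replicate 1 or WT replicate 2 of day 12, the day 12 count was 3, with Dll1, Notch1 and Neurod1 still called, and without any single array of day 9 the day 9 count was 1, Dll1. At day 6 none of the 10 was called by limma and none had an unadjusted p under 0.05, against 1.03% of all genes called. Over all genes the median difference was 0.00 at day 6 and 0.02 at days 9 and 12, and over the 10 regulators it was -0.05, -0.13 and 0.00. Averaged over days, 3 of the 10 were called, Dll1 and Notch1 lower and Insm1 higher, against 32.6% of all genes, 16.9% lower and 15.7% higher.

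**Figure D1:**
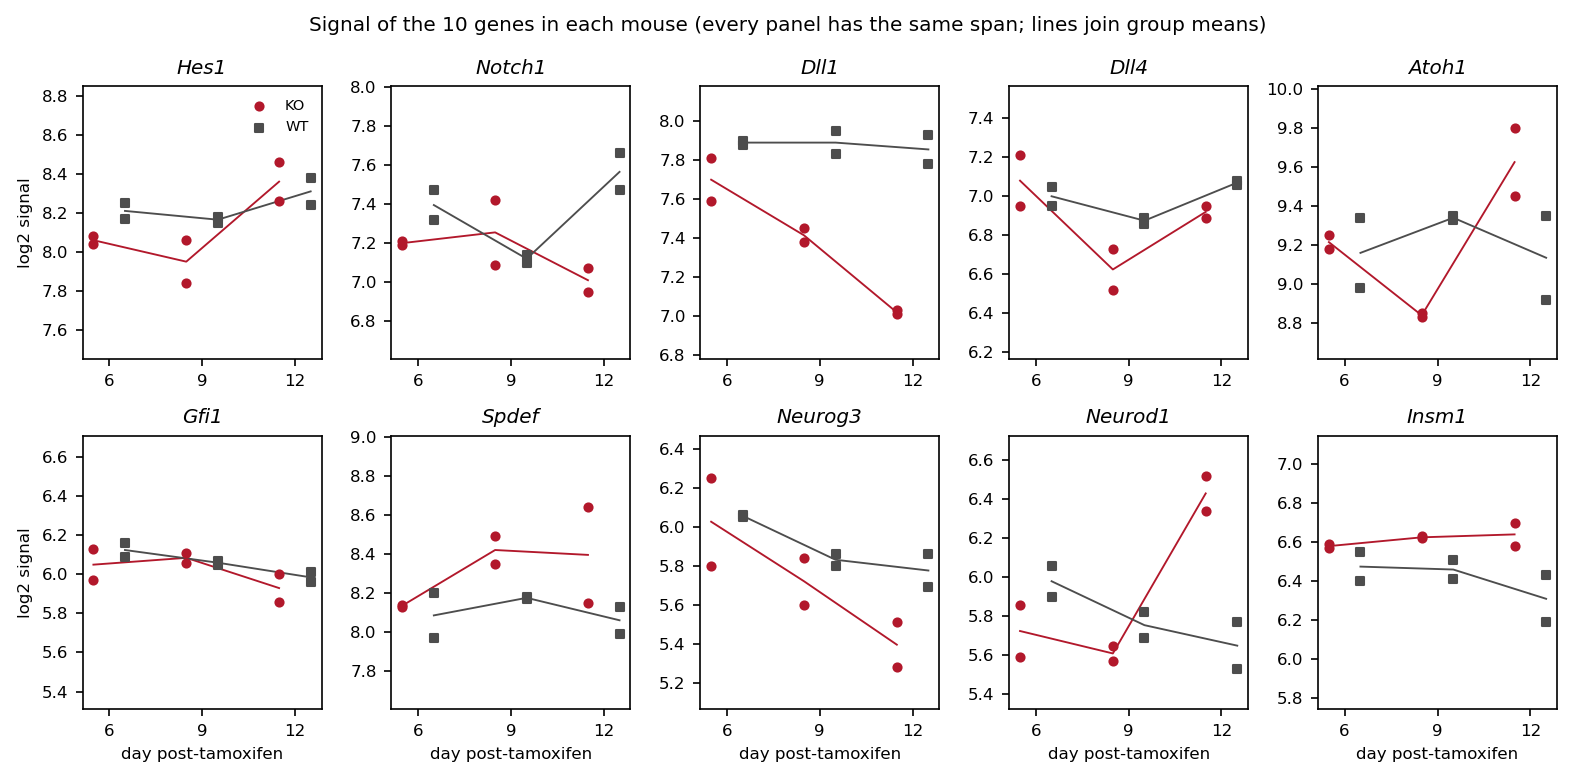
Log2 signal (vertical axis) of the 10 regulators in each mouse by day after tamoxifen (horizontal axis), with KO as circles left of WT as squares and lines joining the means of 2 mice. Dll1 in KO lies below WT at each day and is lowest at day 12, at 7.03 and 7.01, and Neurod1 in KO lies above WT only at day 12.

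Dll1, the Delta ligand that secretory progenitors present to their neighbours, had the largest difference of the 10. Its signals were 7.81 and 7.59 in KO and 7.90 and 7.88 in WT at day 6. They were 7.45 and 7.38 in KO and 7.95 and 7.83 in WT at day 9. At day 12 they were 7.03 and 7.01 in KO and 7.93 and 7.78 in WT. Both KO mice lay below both WT mice at each day, and the KO means stepped down from day to day (7.70, 7.42 and 7.02) while the WT means stayed between 7.85 and 7.89. The difference was not called at day 6 (-0.19, SE 0.10, limma adjusted p = 0.528). It was -0.47 (SE 0.10, adjusted p = 0.00446) at day 9 and -0.84 (SE 0.10, adjusted p = 8.28e-05) at day 12, when Dll1 was 1.78-fold lower in KO, with a 95% confidence interval of -1.06 to -0.61. Averaged over days, Dll1 was lower in KO by 0.50 (SE 0.06, 6 mice per genotype, limma adjusted p = 4.71e-05). An exact two-sided permutation test over mice within days gave p = 0.00926, the smallest that 216 regroupings allow. In whole tissue, fewer cells that make Dll1 and less Dll1 RNA per cell cannot be told apart, here and for every gene below.

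Dll4, the other Delta ligand of the crypt, was not called at any day. It had 6.95 and 7.21 in KO and 6.95 and 7.05 in WT at day 6, and 6.52 and 6.73 in KO and 6.86 and 6.89 in WT at day 9. At day 12 it had 6.89 and 6.95 in KO and 7.06 and 7.08 in WT. Both KO mice were below both WT mice at days 9 and 12, and neither difference passed, at -0.26 (SE 0.11, limma adjusted p = 0.100) and -0.15 (SE 0.11, adjusted p = 0.372). The interval at day 12 was -0.39 to 0.09, which does not reach the fall of Dll1 on that day. The difference between Dll1 and Dll4 was not tested.

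Notch1, the receptor, had signals of 7.21 and 7.19 in KO and 7.47 and 7.32 in WT at day 6, and 7.42 and 7.09 in KO and 7.10 and 7.14 in WT at day 9. At day 12 the signals were 7.07 and 6.95 in KO and 7.66 and 7.47 in WT. The groups overlapped at day 9 and were apart at day 12, where Notch1 was 1.47-fold lower in KO (-0.55, SE 0.12, limma adjusted p = 0.00438). The WT mice of day 12 had the highest Notch1 signals among WT mice, the lower of them level with a mouse of day 6 at 7.47. WT was higher at day 12 than at day 9 by 0.44 (SE 0.12, unadjusted p = 0.00319), which did not pass adjustment (limma adjusted p = 0.396). The KO means were 7.26 at day 9 and 7.01 at day 12, and the WT means were 7.12 and 7.56 on these days. The average over days was -0.20 (SE 0.07, limma adjusted p = 0.0393), with an exact permutation p of 0.130. That average lost its call under 11 of 19 other settings, with adjusted p up to 0.110. They were both scalings, the smooth muscle covariate, and the fits without WT replicate 1 or either KO array of day 6, KO replicate 2 or either WT array of day 9, and WT replicate 1 or KO replicate 2 of day 12.

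Hes1, the repressor that Notch switches on, differed little. It had 8.08 and 8.04 in KO and 8.25 and 8.17 in WT at day 6, and 7.84 and 8.06 in KO and 8.18 and 8.15 in WT at day 9. At day 12 the values were 8.46 and 8.26 in KO and 8.38 and 8.24 in WT. KO lay below WT at days 6 and 9, by -0.15 (SE 0.11, limma adjusted p = 0.697) and -0.21 (SE 0.11, adjusted p = 0.167), and the groups overlapped at day 12 (0.05, SE 0.11, 95% interval -0.19 to 0.28). No day was called.

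**Figure D2:**
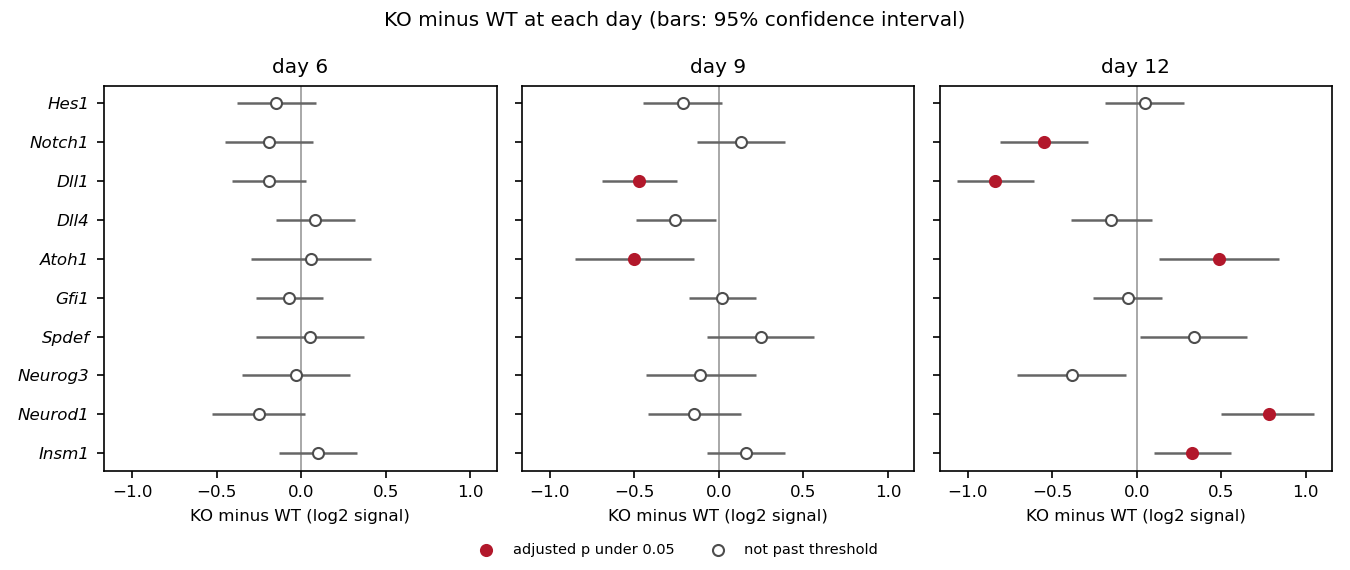
Difference between KO and WT in log2 signal (horizontal axis) for the 10 regulators (rows) at days 6, 9 and 12, with 95% confidence intervals from the fit across all arrays and filled points for adjusted p under 0.05. No point is filled at day 6, Dll1 and Atoh1 are filled at day 9, and Dll1, Notch1, Atoh1, Neurod1 and Insm1 at day 12, with Atoh1 on opposite sides of 0 at the 2 later days.

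Atoh1, the factor that commits a progenitor to the secretory lineage, was lower in KO at day 9 and higher at day 12. Its signals were 9.25 and 9.18 in KO and 8.98 and 9.34 in WT at day 6. They were 8.83 and 8.85 in KO and 9.35 and 9.33 in WT at day 9. At day 12 they were 9.80 and 9.45 in KO and 9.35 and 8.92 in WT. The groups overlapped at day 6, did not overlap at day 9 and were apart in the other direction at day 12, where the lower KO mouse exceeded the higher WT mouse by little. Atoh1 was 1.41-fold lower in KO at day 9 (-0.50, SE 0.16, limma adjusted p = 0.0364) and 1.40-fold higher at day 12 (0.49, SE 0.16, adjusted p = 0.0436). The change in the difference between day 9 and day 12 was 0.98 (SE 0.23, limma adjusted p = 0.0316, against 6.08% of all genes called), and the average over days was 0.01 (SE 0.09, adjusted p = 0.933). Both single-day calls were close to the threshold. At day 9 the difference stayed between -0.51 and -0.49 when any 1 array was left out, but its adjusted p passed 0.05 without any single array of that day (0.0956 to 0.133) and without either KO array of day 6 (0.0522). Leaving out KO replicate 1 of day 12 gave a day 12 difference of 0.31 and leaving out WT replicate 2 gave 0.27, and the call ended in both cases (adjusted p = 0.272 and 0.346). The day 12 call of Atoh1 held under 9 of 20 alternatives. It also ended without either KO array of day 6 (0.0617) or any array of day 9 (0.0562 to 0.0618), with quantile normalisation (0.0725), with the smooth muscle covariate (0.0699) and in the fit of that day's arrays alone (0.118).

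Gfi1, a zinc finger repressor that acts after Atoh1 and favours goblet and Paneth over endocrine fate, had signals of 5.86 to 6.13 in the 6 KO mice and 5.96 to 6.16 in the 6 WT mice. The groups overlapped at every day, and the differences were -0.07, 0.02 and -0.05 at days 6, 9 and 12 (SE 0.09 each, limma adjusted p of 0.751 or more). Its average over days was -0.03, with a 95% interval of -0.15 to 0.08, the narrowest interval of that average among the 10. Gfi1 signals lay near the array medians of 5.95 to 6.02, as did those of Neurog3 and Neurod1. No signal was tested against background, so the narrow interval does not by itself show that Gfi1 RNA was steady.

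Spdef, an Ets factor that drives goblet and Paneth cell maturation, had 8.14 and 8.13 in KO and 7.97 and 8.20 in WT at day 6, and 8.49 and 8.35 in KO and 8.18 and 8.17 in WT at day 9. At day 12 it had 8.64 and 8.15 in KO and 8.13 and 7.99 in WT. Both KO mice were above both WT mice at days 9 and 12, though at day 12 the nearest mice of the 2 genotypes, at 8.15 in KO and 8.13 in WT, were almost level. Neither the day 9 difference (0.25, SE 0.14, limma adjusted p = 0.237) nor that of day 12 (0.34, SE 0.14, adjusted p = 0.116) passed. The average over days was 0.21 (SE 0.08), with a limma adjusted p of 0.0776 and an exact permutation p of 0.0463, 1 of 10 such permutation tests. With 1 array left out at a time, the day 12 difference ran from 0.09 to 0.58 and the average from 0.13 to 0.29. The highest value of each came without KO replicate 2 of day 12. The day 12 difference was called under 1 of 20 alternatives and the average under 2 of 19. With arrays centred on their medians the average was 0.24 and was called (limma adjusted p = 0.0388).

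Neurog3, the factor that starts the endocrine programme, had signals of 6.25 and 5.80 in KO and 6.05 and 6.06 in WT at day 6, and 5.60 and 5.84 in KO and 5.86 and 5.80 in WT at day 9. At day 12 it had 5.28 and 5.51 in KO and 5.86 and 5.69 in WT. The groups overlapped at days 6 and 9 and were apart at day 12, with KO the lower. The day 12 difference was -0.38 (SE 0.15, 95% interval -0.71 to -0.06) and did not pass over all genes (limma adjusted p = 0.0781). It was called under 2 of 20 alternatives, the fits without either KO array of day 6, where it stayed at -0.38. With 1 array left out at a time it ran from -0.50 to -0.27. With the smooth muscle covariate it was -0.30 (limma adjusted p = 0.227).

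Neurod1, which acts downstream of Neurog3 in endocrine cells, moved the other way at day 12. Its signals were 5.86 and 5.59 in KO and 6.06 and 5.90 in WT at day 6, and 5.57 and 5.65 in KO and 5.82 and 5.69 in WT at day 9. At day 12 they were 6.52 and 6.34 in KO and 5.77 and 5.53 in WT. Both KO mice were a little below both WT mice at days 6 and 9, at differences that were not called (-0.25 and -0.15, SE 0.13 each, limma adjusted p = 0.477 and 0.423), and clearly above them at day 12. Neurod1 was then 1.72-fold higher in KO (0.78, SE 0.13, 95% interval 0.50 to 1.05, limma adjusted p = 6.66e-04). The call held under all 20 alternative settings, with adjusted p between 2.39e-04 and 0.0107. The difference rose by 0.93 between day 9 and day 12 (SE 0.18, limma adjusted p = 0.0151).

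Insm1, a zinc finger repressor of endocrine progenitors, was a little higher in KO at every day. Its signals were 6.57 and 6.59 in KO and 6.40 and 6.55 in WT at day 6, and 6.63 and 6.62 in KO and 6.41 and 6.51 in WT at day 9. At day 12 they were 6.70 and 6.58 in KO and 6.43 and 6.19 in WT. Both KO mice were above both WT mice at each day. The difference was 0.10 at day 6 and 0.16 at day 9, neither called, and 0.33 (SE 0.10, limma adjusted p = 0.0349) at day 12, when Insm1 was 1.26-fold higher in KO. The KO means were 6.58, 6.62 and 6.64 at days 6, 9 and 12, and the WT means were 6.48, 6.46 and 6.31. The change over days was not called in KO or WT (moderated F test, limma adjusted p = 0.877 and 0.703). Averaged over days, Insm1 was higher in KO by 0.20 (SE 0.06, limma adjusted p = 0.0247), and the exact permutation p was 0.00926, the smallest possible. The limma call of that average ended (adjusted p 0.0545 to 0.0768) without WT replicate 1 or either KO array of day 6, WT replicate 1 of day 9, and KO replicate 1 or WT replicate 2 of day 12. The day 12 call ended in 6 of 20 other settings, with a difference of 0.27 when KO replicate 1 was left out and 0.21 when WT replicate 2 was.

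Of the 3 endocrine factors, then, Neurod1 and Insm1 were higher in KO at day 12 and Neurog3 was not called, with an interval wholly below 0. These 3 genes are also used by enteric neurons or pancreatic islet cells. The mean of 13 enteric neuron and glia genes was 6.22 and 6.18 in KO and 5.85 and 5.89 in WT at day 12, and 6.16 and 6.03 in KO and 5.74 and 5.87 in WT at day 9. Of these 13 genes only Ret, the receptor for glial-derived factors, was called, against 29.7% and 27.3% of all genes at days 9 and 12. It was higher in KO by 2.21 (SE 0.16, limma adjusted p = 1.97e-06) at day 9 and 2.47 (SE 0.16, adjusted p = 6.20e-07) at day 12. The median difference of the 13, on which Ret weighs less than on the mean, was 0.12 at day 9 and 0.15 at day 12. The mean of 9 pancreas genes was 4.90 and 4.77 in KO and 4.83 and 4.79 in WT at day 12. The part of other cell types in the Neurod1 and Insm1 differences was not tested.

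The time courses within each genotype were set side by side. In KO, 6 of the 10 regulators changed over the 3 days, against 37.6% of all genes: Dll1 (moderated F test, limma adjusted p = 0.00124), Neurod1 (9.34e-04), Atoh1 (0.00849), Dll4 (0.0157), Neurog3 (0.0160) and Hes1 (0.0242). The calls of Neurod1 and Atoh1 held under all 19 alternatives, and that of Dll1 ended with the smooth muscle covariate (adjusted p = 0.0554) and with no other alternative. That of Dll4 ended without KO replicate 2 of day 6 or KO replicate 1 of day 9 (0.0654 and 0.120), and that of Neurog3 without KO replicate 1 of day 6 or of day 12 (0.0746 and 0.0684) and with the smooth muscle covariate (0.585). That of Hes1 ended without KO replicate 2 of day 6, KO replicate 1 of day 9 or KO replicate 1 of day 12 (0.0509, 0.0745 and 0.140), with quantile normalisation (0.0704) and with the smooth muscle covariate (0.0781). Between days 9 and 12 in KO, Neurod1 rose by 0.82 (SE 0.13), Atoh1 by 0.78 (SE 0.16) and Hes1 by 0.41 (SE 0.11), while Dll1 fell by 0.40 (SE 0.10), so that 4 of the 10 were called for this step, against 22.9% of all genes. In WT none of the 10 was called by limma and 1, Notch1, had an unadjusted p under 0.05, against 0.0201% of all genes called. The genotype by day interaction, which tests whether the difference changed with day, was called for Neurod1, Dll1, Atoh1 and Notch1, or 4 of 10, against 18.5% of all genes. Only the call of Neurod1 held with every array left out in turn, and the count was 1 to 3 over these fits. The Notch1 difference changed by -0.69 between days 9 and 12 (SE 0.17, limma adjusted p = 0.0371), while the further fall of Dll1 over that step was not called by itself (-0.36, SE 0.14, adjusted p = 0.164).

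The rest of the Notch pathway was split in direction. Among 8 other ligands and receptors, 2 were higher in KO at day 9, against 12.6% of all genes, and 2 at day 12, against 13.7%. None was lower at either day, against 17.1% and 13.7% of all genes. Notch2, the receptor that works beside Notch1 in the crypt, had signals of 8.66 and 8.36 in KO and 7.43 and 7.82 in WT at day 12, and 8.11 and 8.04 in KO and 7.18 and 7.38 in WT at day 9. Both KO mice were above both WT mice on both days, so Notch2 was higher (0.80 and 0.88 at days 9 and 12, SE 0.14 each, limma adjusted p = 0.00124 and 5.63e-04) at the day Notch1 was lower. The atypical ligand Dlk1 was higher at day 9 (0.51, SE 0.16) and Notch3, known from vascular mural cells, at day 12 (0.34, SE 0.11). The ligand Jag1, at 0.33 and 0.30, was not called at either day. The median difference of the 8 was 0.14 at day 9 and 0.17 at day 12, against 0.02 for all genes on both days.

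Among 24 measured genes of Notch processing and trafficking, 2 were higher and 7 lower in KO at day 9, against 29.7% of all genes called. At day 12, 4 were higher and 5 lower, against 27.3% of all genes called. The falls were led by Rfng, a fringe glycosyltransferase that modifies Notch receptors, at -1.26 and -0.79 (SE 0.11 each), and Numb, an adaptor that antagonises Notch, at -1.25 and -0.55 (SE 0.14 each). The ubiquitin ligase Itch (-0.78 and -0.45) and Adam17, a metalloprotease that can shed the receptor (-0.52 and -0.47), were lower on both days. Furin, which makes the first receptor cut, was higher on both days (0.49 and 0.43). Aph1b, a subunit of gamma-secretase, was lower at day 9 (-0.49, SE 0.16, limma adjusted p = 0.0354) and higher at day 12 (0.59, SE 0.16, adjusted p = 0.0163), the same order of signs as Atoh1. The remaining calls were Poglut1 (-0.63), Ncstn (-0.49) and Adam10 (0.28) at day 9, and Dtx1 (-0.78), Dtx4 (0.55) and Psenen (0.32) at day 12. The median of the list was 0.03 at day 9 and 0.05 at day 12, close to the 0.02 of all genes.

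**Figure D3:**
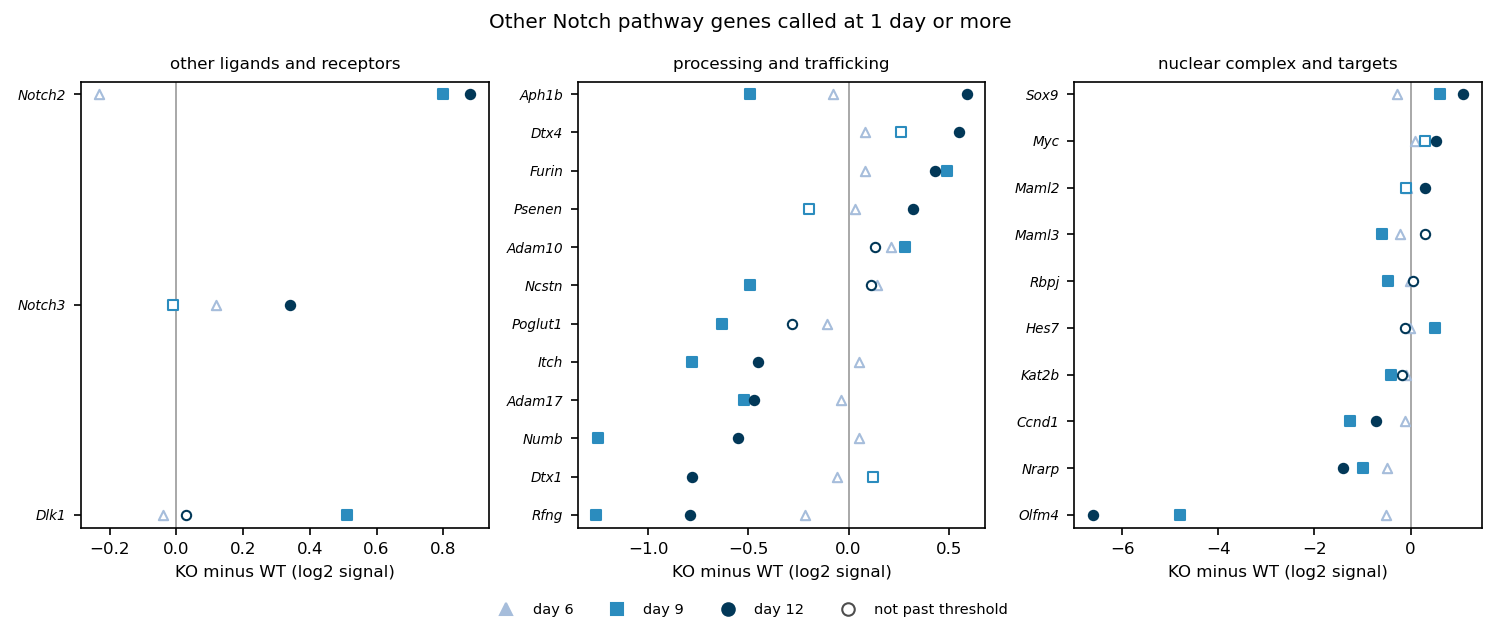
Difference between KO and WT in log2 signal (horizontal axis, own scale per panel) for the other Notch pathway genes called at any day, by day as triangle, square and circle, with filled symbols for adjusted p under 0.05. Notch2 lies at 0.80 and 0.88 at days 9 and 12, Rfng at -1.26 and -0.79, and Olfm4 at -4.80 and -6.61.

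Of 19 genes of the nuclear complex and known targets, 2 were higher and 6 lower in KO at day 9, against 29.7% of all genes called. At day 12, 3 were higher and 3 lower, against 27.3% of all genes called. Nrarp, a feedback inhibitor that Notch induces, had 5.83 and 5.51 in KO and 7.20 and 6.96 in WT at day 12, with no overlap, and was lower by -1.41 (SE 0.16, limma adjusted p = 5.01e-05). At day 9 it was lower by -0.99 (SE 0.16, adjusted p = 7.40e-04). Olfm4, a crypt base gene that Notch maintains, had 5.95 and 5.77 in KO and 12.51 and 12.42 in WT at day 12. It is also a stem cell marker, and 7 of 13 stem cell markers were lower in KO on that day, Olfm4 among them, against 13.7% of all genes. Hes1, at 0.05 on day 12, was not called beside these falls. Rbpj, the DNA-binding partner of the receptor, was lower at day 9 (-0.46, SE 0.09) and not called at day 12 (0.04, SE 0.09). The cyclin Ccnd1 was lower on both days (-1.27 and -0.71). Sox9, a crypt and Paneth factor that Notch can regulate, was higher on both days (0.61 and 1.10), as was Myc at day 12 (0.53). The other calls were Maml3 (-0.60), Kat2b (-0.40) and Hes7 (0.51) at day 9, and Maml2 (0.31) at day 12. The related repressors Hes5, Hes6 and Hey1 were not called at any day, with differences between -0.13 and 0.29.

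The other transcription factors of endocrine fate gave few calls at day 9, when 29.7% of all genes were called. Among 25 measured, Foxa1 was higher (0.83, SE 0.20) and Gata4 (-0.83, SE 0.15), Hnf4a (-0.41) and Rfx3 (-0.36) were lower. At day 12, 5 of 25 were higher and 1 lower, against 13.7% of all genes in each direction. The forkhead factors Foxa1 and Foxa2, which act in secretory and L cell differentiation, were higher by 1.06 (SE 0.20, limma adjusted p = 0.00201) and 0.36 (SE 0.11, adjusted p = 0.0332). Sox4, which acts in tuft and endocrine progenitors, had 8.78 and 8.46 in KO and 7.70 and 7.53 in WT and was higher by 1.01 (SE 0.17, adjusted p = 8.22e-04). Egr1 (0.71) and Etv1 (0.53) were also higher and Gata4 was again lower (-0.78). Most factors of late endocrine subtypes were not called, among them Pax4 (-0.10), Pax6 (-0.10), Nkx2-2 (0.10), Isl1 (-0.27) and Rfx6 (-0.30). The median of the list was 0.05 at day 9 and -0.03 at day 12. Neurod1 and Insm1 were thus higher in KO on the same day as Foxa1, Foxa2 and Sox4.

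Factors of goblet and Paneth fate changed in larger number, 11 of 19 at day 9 and 11 of 19 at day 12, against 29.7% and 27.3% of all genes. Tgif1, a homeobox repressor, was the only one called at day 6 (0.49, SE 0.10, limma adjusted p = 0.0485), and it was higher again at days 9 and 12 (0.58 and 1.18). Mecom, a zinc finger factor, was higher at days 9 and 12. It had 8.96 and 9.45 in KO and 7.53 and 7.74 in WT at day 9. At day 12 it had 9.97 and 10.04 in KO and 7.95 and 7.52 in WT, a rise of 2.27 (SE 0.18). Foxa3, a goblet cell factor, was higher at day 12 (0.98, SE 0.19), and so were Ehf (0.82) and the stress factor Ddit3 (0.74, after 1.15 at day 9). Nr5a2, a nuclear receptor of the crypt, was lower at days 9 and 12. It had 7.61 and 7.48 in KO and 9.24 and 9.16 in WT at day 9. At day 12 it had 6.77 and 7.53 in KO and 9.22 and 9.30 in WT, a fall of -2.11 (SE 0.18). Creb3l4 was lower at both days (-1.20 and -0.85), Creb3l1 (-0.83), Ern2 (-0.76) and Atf6 (-0.38) at day 9, and Bhlha15 (-1.25) and Xbp1 (-0.37) at day 12. Atf6 was not called at day 12, at 0.36 (SE 0.13, limma adjusted p = 0.0557). The remaining calls, all lower, were Cbfa2t2 (-1.16), Klf4 (-0.51) and Ascl2 (-0.83) at day 9, and Elf3 (-0.66) and Ascl2 (-0.67) at day 12. Spdef, at 0.34, and Gfi1, at -0.05, lay on either side of 0 at day 12 and were not called.

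**Figure D4:**
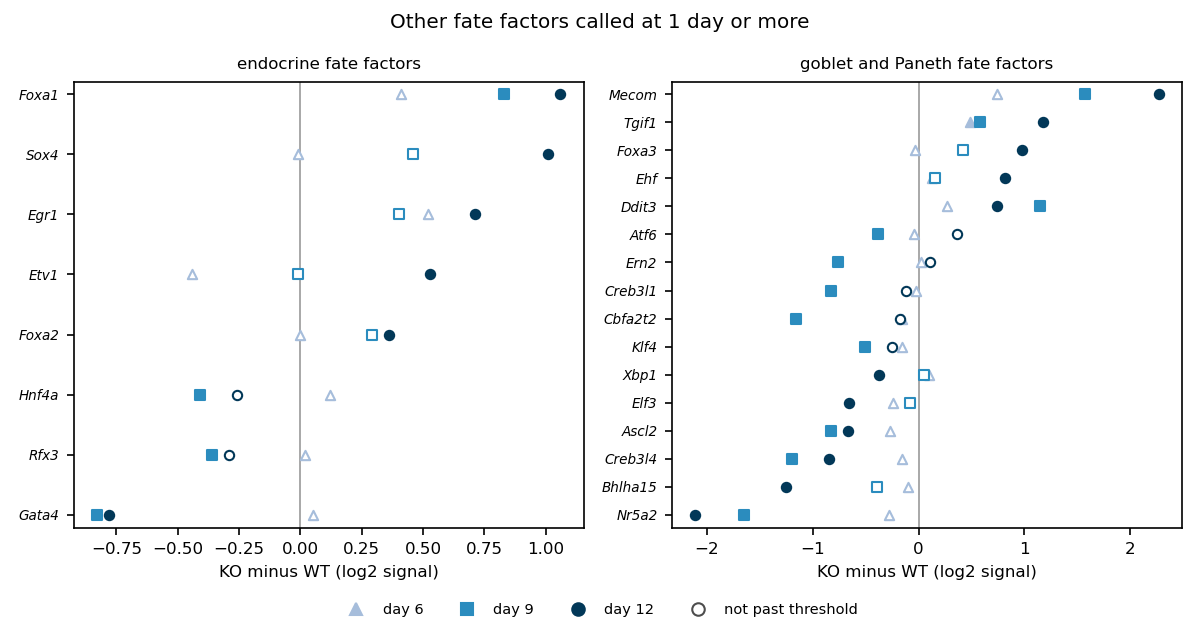
Difference between KO and WT in log2 signal (horizontal axis, own scale per panel) for the other fate factors called at any day, endocrine at left and goblet and Paneth at right, by day as triangle, square and circle, with filled symbols for adjusted p under 0.05. Foxa1, Sox4 and Mecom lie at 1.06, 1.01 and 2.27 at day 12, and Gata4 and Nr5a2 at -0.78 and -2.11.

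The products of the secretory cell types were compared with the regulators. Of 25 enteroendocrine markers none was higher and 6 were lower in KO at day 9, and 1 was higher and 6 lower at day 12. Neurotensin, Nts, had 5.53 and 5.25 in KO and 8.22 and 7.83 in WT at day 12 (-2.64, SE 0.19, limma adjusted p = 1.39e-06). Somatostatin, Sst (-1.50, SE 0.13), the incretin Gip (-1.27, SE 0.13) and the granule protein Chga (-1.01, SE 0.10) were lower on the same day. The exception was Pcsk1, a hormone-processing protease, which was lower in KO at day 9 (-0.45, SE 0.12, limma adjusted p = 0.0167) and higher at day 12 (0.53, SE 0.12, adjusted p = 0.00632), as Atoh1 was. The median of the 25 was 0.06 at day 12. The calls, 6 of 25 at day 9 and 7 of 25 at day 12, were near the share of all genes called, 29.7% and 27.3%.

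Of 14 goblet cell markers, 4 were higher and 1 lower at day 12, against 13.7% of all genes called in each direction. The goblet peptide Tff3 had 13.27 and 12.43 in KO and 12.17 and 12.08 in WT (0.73, SE 0.20, limma adjusted p = 0.0177), and the mucin Muc2 differed by 0.12 (SE 0.13, adjusted p = 0.599). Both KO mice of Tff3 were above both WT mice, and KO replicate 1 was the higher of its pair. That mouse was also the higher of its pair for most of the 10 regulators and for the smooth muscle mean, at 9.77 against 9.23. The granule factor Sytl2 was higher (1.16, SE 0.15), the channel Kcnk6 was higher (0.93, SE 0.17) and Clca1 was lower (-0.75, SE 0.15). Of 7 Paneth cell markers, 5 were lower and 1 higher at day 12, against the same 13.7% in each direction. Ang4 (-1.49, SE 0.19), Itln1 (-1.26, SE 0.15) and Pla2g2a (-1.04, SE 0.23) fell furthest, and lysozyme, Lyz1, fell by 0.41 (SE 0.11). No Paneth marker was called at day 9 by limma, against 29.7% of all genes, and the median of the 7 was then -0.21. Of 12 tuft cell markers, 6 were lower at each of days 9 and 12, against 17.1% and 13.7% of all genes. Rgs13 led these falls (-1.83 and -2.94), and 2 tuft markers were higher at day 12, Avil (0.73) and Hepacam2 (0.52). At day 9 Hepacam2 was lower in KO, at 7.52 and 7.38 against 8.27 and 8.24 in WT.

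**Figure D5:**
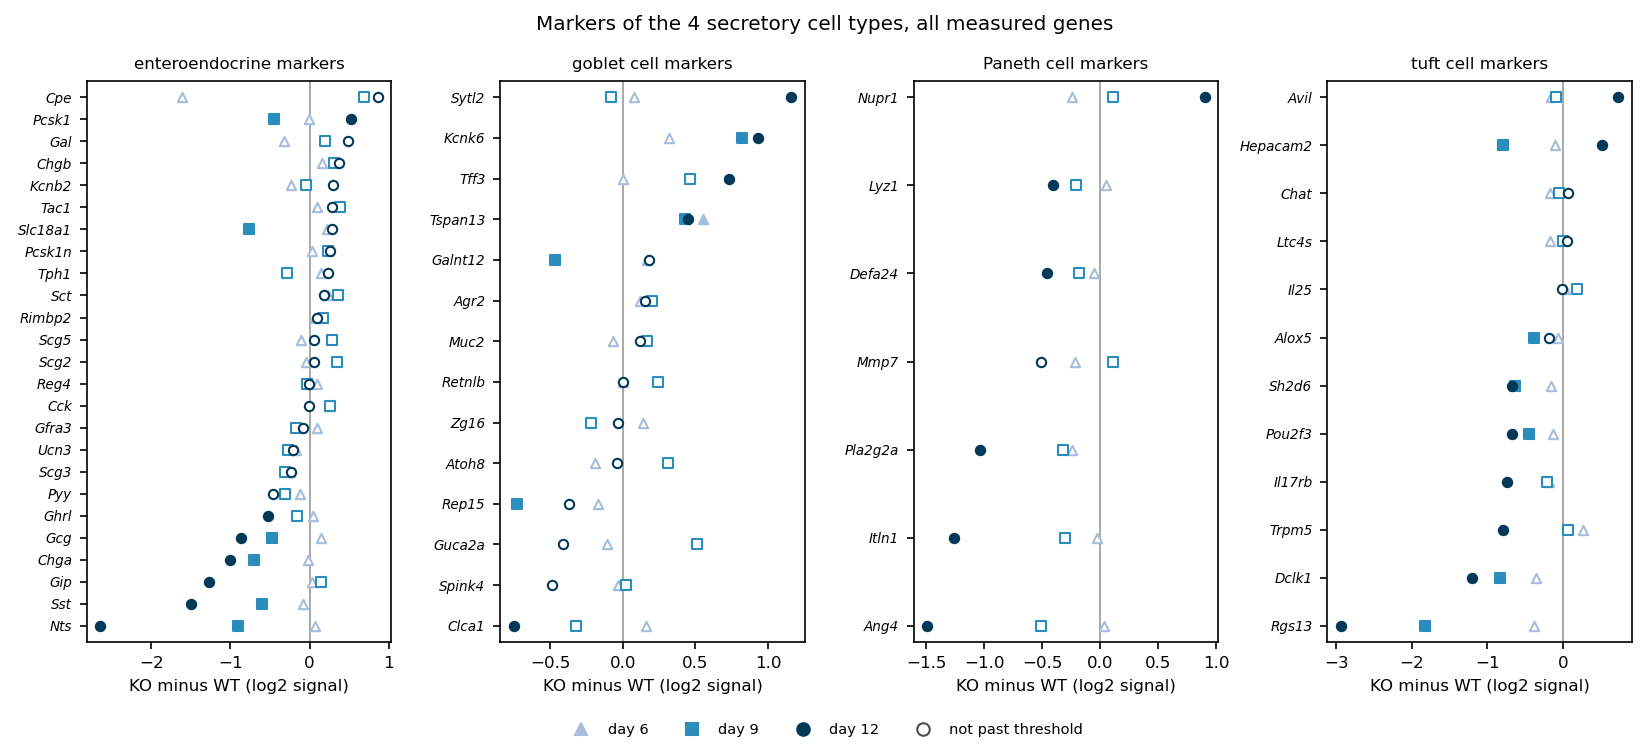
Difference between KO and WT in log2 signal (horizontal axis, own scale per panel) for every measured marker of enteroendocrine, goblet, Paneth and tuft cells, by day as triangle, square and circle, with filled symbols for adjusted p under 0.05. Nts, Ang4 and Rgs13 lie lowest of their panels at day 12, at -2.64, -1.49 and -2.94, while Sytl2 lies highest of the goblet markers at 1.16.

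Notch1 and Dll4 are made by endothelium as well, and Notch1 and Gfi1 by lymphocytes. None of 15 endothelial markers was called at day 12 by limma, against 27.3% of all genes. Their mean was 7.45 and 7.37 in KO and 7.32 and 7.33 in WT. Of 14 lymphocyte markers, 9 were lower and none higher in KO at day 12, against 13.7% of all genes in each direction. The list means were 6.01 and 5.86 in KO and 6.82 and 7.55 in WT. At day 9, 6 of these 14 lymphocyte markers were lower and none higher, against 17.1% and 12.6% of all genes. The means were then 6.64 and 6.45 in KO and 7.14 and 6.96 in WT. The part of lymphocytes in the Notch1 difference was not tested. With the smooth muscle mean as a covariate, the day 12 differences of Dll1 (-0.84), Notch1 (-0.67) and Neurod1 (0.77) were still called, while those of Insm1 (0.32, limma adjusted p = 0.0764) and Atoh1 (0.51, adjusted p = 0.0699) were not.

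The patterns over the 12 arrays were also matched to other genes, by Pearson correlation of log2 signals and as a description only, since all points share the same arrays and groups. Dll1 was most like Eepd1, Slc51b and Il17rc (r of 0.98 each) and Insm1 most like Rabggta (0.95), Rce1 (0.94) and Pabpc1l (0.93). Neurod1 was most like Entpd4 (0.93), C1galt1c1 and Cldn8 (0.92 each), and Atoh1 most like Pllp (0.95), Rap1gap and Srd5a3 (0.90 each). Spdef was most like Ramp2, Slc22a18 and Atp6v1g1 (0.95 each), and Hes1 most like Homer2 (0.95), Arid1b (0.90) and Auts2 (0.89). The closest genes to the other 4 were those of Neurog3 (Prr14l, Utp25 and Skp2, 0.91 each), Dll4 (Aqr, Ctnnbl1 and Gab3, 0.92 each), Notch1 (Ncf4 and H1f3, 0.88 each, and Zfp791, 0.86) and Gfi1 (Rtl9, 0.87, then Ugt2b37 and Mns1, 0.86 each). The lowest first match belonged to Gfi1, whose signals hardly varied between groups.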

How the data were processed

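Affymetrix Mouse Gene 1.0 ST arrays were used for RNA of whole jejunum, per the labels' protocols, with 1 array per mouse and 2 mice in each of 6 groups of genotype and day. The table the authors deposited holds log2 signals of 35556 probe sets, which ran from 2.29 to 14.13 with array medians of 5.95 to 6.02. The tools listed in the submitters' processing notes are limma and R 3.5, without a role. How the signals were corrected for background, summarised and normalised is not given in the sources used here.

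The values were used as deposited and were not tested against background. Gene names came from the annotation table of the platform: 21789 carried 1 symbol, 1621 several, and 12146 are unnamed here. Where a symbol had several probe sets (999 symbols), the row with the highest mean was kept, which gave 19938 genes, with no filter on dim genes. No pair of arrays held identical values, and across genes the correlation within a group was 0.992 to 0.997. Group means were fitted over all 12 arrays with limma 3.58.1 in R 4.3.3 (6 residual and 5.23 prior degrees of freedom), since 2 mice per group give little spread of their own. KO minus WT was estimated for each day and for the mean of the days, and moderated F tests gave the interaction of genotype with day and the changes over days in each genotype. All p-values are two-sided and were adjusted by Benjamini-Hochberg over all genes, with a threshold of 0.05. The fit was tested on simulated data. Single averages over days also had an exact permutation test over mice within days. On arrays the number of mice limits the precision. The labels name no litter, cage or array batch.

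The 10 regulators and 18 gene lists (297 entries, 271 with a row of their own) were chosen with earlier results of these data known. All 10 regulators were named. In the pathway and fate factor lists any called gene could be named, and in each other list up to 3 called genes per day with the largest differences, with defining genes. Pcsk1 at day 12, Tff3, Avil and Hepacam2, and the uncalled genes of the lists, were named after their values were seen. For likeness of pattern, the 3 genes with the highest Pearson correlation were taken, without predicted genes, clones, small RNAs and odorant receptors. The alternatives were median centring, quantile normalisation, a filter on dim genes (log2 signal of 5 or more in at least 2 arrays), the mean over the rows of a gene, trend and robust moderation, the replicate number as a block, the smooth muscle mean as a covariate, only the 4 arrays of a day, and each array left out in turn. Promoter windows and gene names came from RefSeq tables.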

Additional observations from a re-analysis of the deposited data

Results flagged for a closer look

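For 4 of the 10 regulators the difference between KO and WT changed with day, by limma's moderated F test of the genotype by day interaction: Neurod1 (adjusted p = 0.00383), Dll1 (0.0229), Atoh1 (0.0288) and Notch1 (0.0369). Neurod1 differed by -0.25, -0.15 and 0.78 at days 6, 9 and 12, and its interaction was called under all 19 alternatives run (adjusted p 0.00154 to 0.0290). Dll1 differed by -0.19, -0.47 and -0.84, and its interaction lost its call without WT replicate 1, KO replicate 1 or WT replicate 2 of day 6 (adjusted p = 0.0563, 0.0773 and 0.0582), without WT replicate 1 of day 12 (0.0838) and with the smooth muscle covariate (0.156). Atoh1 differed by 0.06, -0.50 and 0.49, and its interaction was called under 9 of 19 alternatives, with adjusted p up to 0.0817. It ended without any single array of day 9 (0.0573 to 0.0817), either KO array of day 6 (0.0546 and 0.0563), KO replicate 1 of day 12 (0.0516) or WT replicate 2 of day 12 (0.0738), and with quantile normalisation (0.0726) or the smooth muscle covariate (0.0572). Notch1 differed by -0.19, 0.13 and -0.55, and its interaction was called under 11 of 19 alternatives, with adjusted p up to 0.118. It ended without WT replicate 1 of day 6 (0.0519), either KO array of day 6 (0.0696 and 0.0711), KO replicate 1 (0.0881) or either WT array of day 9 (0.100 and 0.0897), and WT replicate 1 (0.118) or KO replicate 2 of day 12 (0.0790). The smooth muscle mean moved with genotype in opposite directions at days 6 and 12, at 7.85 and 7.71 in KO and 9.41 and 8.75 in WT at day 6, and 9.77 and 9.23 in KO and 8.91 and 9.02 in WT at day 12. For the single step between days 9 and 12, the call of Neurod1 ended without KO replicate 1 or WT replicate 1 of day 9 or WT replicate 2 of day 12 (adjusted p = 0.0568, 0.0552 and 0.0662), and those of Atoh1 and Notch1 each ended under 8 alternatives (adjusted p up to 0.115 and 0.126). Groups of 2 mice allow no check for single outlying mice.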

How the results depend on the processing

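The directions and calls of Dll1 at days 9 and 12, Neurod1 at day 12 and Notch1 at day 12 held under all 20 alternatives, with adjusted p up to 0.0462, 0.00266, 0.0107 and 0.0491. The number of regulators called at day 9 was 1 with quantile normalisation, against 2. At day 12 it was 3 with the smooth muscle covariate and 3 in the fit of only the 4 arrays of that day, against 5. The interaction was called for 2 with the smooth muscle covariate, against 4, and the change over days in KO for 3, against 6. With 1 array left out at a time, the counts were 0 at day 6, 1 to 2 at day 9, 3 to 6 at day 12, 1 to 3 for the average, 1 to 3 for the interaction, 4 to 7 for the change in KO and 0 for the change in WT. The average count was 1 without WT replicate 1 or KO replicate 2 of day 6 or WT replicate 1 of day 9. Differences that changed sign were not called under any of the settings that turned them. At day 6 these were Neurog3 (0.00 with median centring and 0.01 with quantile normalisation) and, with the smooth muscle covariate, Atoh1 (-0.01), Dll4 (-0.10), Notch1 (0.09) and Gfi1 (0.02). With 1 array left out, day 6 differences ran from -0.26 to 0.20 for Neurog3, -0.12 to 0.24 for Atoh1, -0.05 to 0.21 for Dll4, -0.07 to 0.17 for Spdef and -0.15 to 0.01 for Gfi1. Those of day 9 ran from -0.22 to 0.01 for Neurog3, -0.03 to 0.29 for Notch1 and 0.00 to 0.04 for Gfi1, those of day 12 from -0.05 to 0.15 for Hes1 and -0.12 to 0.02 for Gfi1, and the average of Atoh1 from -0.06 to 0.09. The cause of these changes was not tested, and fits with fewer arrays also have fewer degrees of freedom.

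Samples with the same number did not deviate together (correlation of deviations across genes 0.18, -0.09 and 0.11 at days 6, 9 and 12), so the numbers were not taken to pair mice. With the replicate block, the counts of regulators called stayed 0, 2, 5 and 3 at days 6, 9 and 12 and on average, 4 for the interaction and 6 and 0 for the changes in KO and WT. Over all genes the block called 146 at day 6, against 205. The smooth muscle covariate called 17 at day 6, against 205, 1702 for the interaction, against 3685, and 4974 for the change in KO, against 7487.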
